A study of Homo sapiens with 24 samples.

Results

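RNA was sequenced from ID3-KO AID-DIvA cells that had been given the histone deacetylase (HDAC) inhibitor mocetinostat and then left to recover, and from the same knockout cells without treatment. The comparison uses 6 of the 24 libraries of the study, 3 per group, and they were chosen by the titles of the samples. AID-DIvA is a derivative of the human osteosarcoma line U2OS that carries a vector for the restriction enzyme AsiSI, which enters the nucleus when 4OHT is given and is broken down when auxin is given. Both groups lack ID3, a nuclear protein that binds basic helix-loop-helix factors of the E protein class and keeps them off DNA. The knockout line is an engineered cell line, and whether it is 1 clone or a pool is not given in the sources used here. Treated cells received mocetinostat for 24 h and then medium without the drug for 24 h, and they are called treated-recovered here. The dose used for the RNA samples is not given in the sources used here. For 12 libraries, all of AID-DIvA cells, the titles and the treatment entry in the labels contradict each other, and the titles were followed throughout. The remaining libraries hold WT AID-DIvA cells under the same scheme, and WT and ID3-KO U2OS cells collected with no recovery. They enter where a difference in response was tested and where calls or medians of WT AID-DIvA or ID3-KO U2OS cells are given.

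Total counts per library were 60586762, 76906266 and 54727371 in the untreated group and 37878751, 69381734 and 47950399 in the treated-recovered group. Of 20362 genes with enough counts to test, 997 were called up and 521 down, where a call asks for both a log2 fold change beyond 1 and an adjusted p under 0.05. The background shares are thus 4.9% called up, 2.56% called down and 7.46% called either way. At the adjusted p alone, 4114 genes (20.2%) rose and 4042 (19.9%) fell, 40.1% together, and "rose" and "fell" are used below in that sense. Without untreated replicate 1 the number that fell was 2628. In bulk RNA, fewer cells that express a gene and less RNA per cell cannot be told apart. Values are CPM, a gene's share of the library's counts scaled by TMM, and log2 fold changes are treated-recovered over untreated with their standard error (SE). The replicates are labelled as biological, but nothing in the labels says how the cultures were kept apart. The libraries differed from one another in how their values moved with transcript GC content. The correlation of a library's deviation from its group mean with GC ran from -0.571 to 0.706 across 14768 genes, and the median log2 fold change ran from -0.26 in the decile of genes with the lowest GC to 0.15 in the decile with the highest. Many counts of members that a GC correction moved by over 1.5 times are given with their corrected value, but not all. Of 245 named genes past the adjusted p, 15 missed it under some alternative, and those among them that lie below the log2 threshold are given by their values. The 8 markers of the U2OS line were all detected, with a summed level of 4923 to 5341 CPM before and 3785 to 3891 CPM after treatment, and 5 of them fell and 1 rose.

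HDACs remove acetyl groups from histone tails and from other proteins, and their inhibitors raise acetylation within hours, which is followed by both gains and losses of transcription. Mocetinostat acts mainly on the class I enzymes, and its effect on acetylation is reversible. Class I HDACs also sit in the complexes that hold cell cycle genes, neuronal genes and many tissue-specific genes silent. ID proteins lack a DNA-binding region and act by forming dimers with E proteins such as TCF3, TCF4 and TCF12, whose target is the E-box.

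The ID3 locus (chr1:23884409-23886285, minus strand, GRCh37) was still transcribed in the knockout cells. ID3 stood at 31.5, 30.5 and 37.4 CPM in the untreated libraries and at 62.3, 59.1 and 63.9 CPM in the treated-recovered libraries. The groups did not overlap, and the log2 fold change was 0.90 (SE 0.09, adjusted p = 3.77e-05). Reads at the locus do not show whether a protein is made, since a knockout by a small edit leaves the message in place. Of the other ID genes, ID1 rose from 193, 182 and 228 CPM to 323, 315 and 330 CPM, and ID4 rose by 0.73 on the log2 scale (adjusted p = 0.000914). ID2 stayed between 6.05 and 7.48 CPM in all 6 libraries. Of their partners, TCF4 and TCF12 went the other way. TCF4 went from 60.2, 58.4 and 57.0 CPM to 28.6, 35.1 and 38.4 CPM, a log2 fold change of -0.78 (adjusted p = 0.000236), and TCF12 changed by -0.38 (adjusted p = 0.000787). Of the 7 ID and E protein genes tested, 3 rose, 2 fell and 2 did not pass the adjusted p.

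The genes that rose most came from many tissues. Among genes averaging at least 1 CPM whose groups did not overlap, the 12 highest fold changes belonged to KRT20, HLA-DRA, UCA1, STMN2, PSG8, IL8, CCL4, CSF2, IGFN1, NCAN, OLAH and SP140. KRT20, a keratin of the gut lining, held 2 counts over the 3 untreated libraries and 754 over the treated-recovered ones, a ratio of 474 with an exact 95% interval of 131 to 3920, which like the other such intervals covers counting error only. STMN2, a tubulin-binding protein of growing neurons, went from 0.26, 0.117 and 0.0728 CPM to 5.44, 5.47 and 5.02 CPM. UCA1, a long non-coding RNA first described in bladder cancer, went from 0.309, 0.195 and 0.255 CPM to 10.1, 8.19 and 8.99 CPM. The starting levels were close to the floor of detection, and the levels reached were modest. SP140, a bromodomain protein of lymphoid nuclei, was the best expressed of the 12 after recovery, with 1.46, 1.63 and 1.20 CPM before and 28.8, 27.2 and 26.4 CPM after (log2 4.25, SE 0.11, adjusted p = 2.70e-08). NCAN, a proteoglycan of brain matrix, went from 0.455, 0.559 and 0.40 CPM to 11.7, 10.5 and 10.5 CPM.

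**Figure D1:**
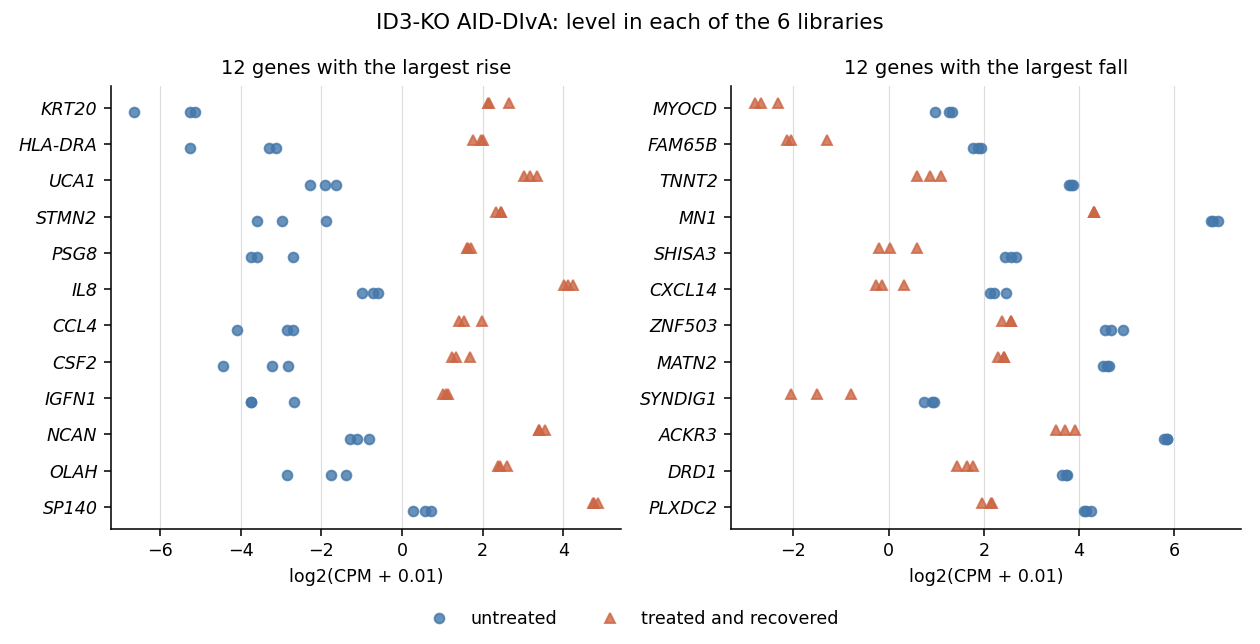
Level in each library, as log2 of CPM plus 0.01, of the 12 genes with the highest (left) and the 12 with the lowest (right) log2 fold change among called genes averaging at least 1 CPM; circles are the 3 untreated and triangles the 3 treated-recovered ID3-KO AID-DIvA libraries. The symbols of the groups stay apart for every gene, which the choice of genes required.

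Among the 12 genes that fell most, MYOCD, the coactivator that turns on smooth and cardiac muscle genes, went from 2.39, 2.51 and 1.95 CPM to 0.132, 0.19 and 0.147 CPM, a log2 fold change of -3.81 (SE 0.21, adjusted p = 1.22e-06). MN1, a transcriptional coregulator, was the most abundant of the 12, at 121, 109 and 113 CPM before and 19.8, 20.0 and 19.8 CPM after (log2 -2.52, SE 0.07). FAM65B, TNNT2, SHISA3, CXCL14, ZNF503, MATN2, SYNDIG1, ACKR3, DRD1 and PLXDC2 made up the rest. Receptors and secreted ligands were among them: ACKR3, the scavenging receptor of CXCL12, went from 57.7, 55.1 and 57.4 CPM to 11.4, 13 and 15 CPM, and CXCL12 itself fell from 1.41, 1.08 and 0.764 CPM to 0.317, 0.54 and 0.441 CPM (log2 -1.27, adjusted p = 0.0045). CXCL14 fell from 5.52, 4.61 and 4.38 CPM to 0.898, 1.24 and 0.819 CPM.

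Among called genes the largest gains in CPM were those of MYC, ANKRD1, TGFBI, HLA-B, LAMB3, LAMA1, ITGA6 and BRE. MYC, the growth-promoting transcription factor, rose from 151, 143 and 154 CPM to 531, 440 and 434 CPM (log2 1.65, SE 0.08, adjusted p = 7.34e-07). ANKRD1, a nuclear and sarcomeric ankyrin-repeat protein, rose from 207, 206 and 186 CPM to 470, 443 and 442 CPM. TGFBI, a matrix protein induced by TGF-beta, rose from 75.9, 76.8 and 80.7 CPM to 338, 316 and 309 CPM. The largest losses in CPM among called genes were those of FSTL1, CENPF, COL3A1, DLGAP5, PRR11, CAV1, PCLO and CEP55, of which CENPF, DLGAP5 and CEP55 serve mitosis. FSTL1, a secreted glycoprotein of mesenchymal cells, fell from 633, 628 and 619 CPM to 211, 229 and 239 CPM (log2 -1.47, SE 0.06, adjusted p = 2.39e-07).

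Mitotic genes fell as a body. Of 30 genes of the spindle and of cytokinesis, 30 fell, 13 of them past the log2 threshold, with a median log2 fold change of -0.92 against -0.02 over all genes tested. For all 30 the groups did not overlap, as held for 53.1% of all genes tested. Of 27 switches of mitosis (kinases, cyclins, phosphatases and ubiquitin ligase parts), 24 fell and 1 rose, 7 of them called down, with a median of -0.78. Of 38 kinetochore and checkpoint genes, 29 fell and none rose, 7 called down, with a median of -0.53, and of 13 condensin and cohesin genes 10 fell, none past the log2 threshold. With the GC trend of each library removed, 8 spindle genes, 7 switches and 4 kinetochore genes were called down, and 30, 23 and 30 fell, with medians of -0.82, -0.82 and -0.49. The fall was shared with WT AID-DIvA cells, where 30 spindle genes, 23 switches and 27 kinetochore genes fell, with medians of -0.672, -0.598 and -0.375. There 3, 2 and 1 of them were called down. The difference between the 2 responses, tested below, was lower in ID3-KO cells for 2, 1 and 0 members.

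Promoters of genes such as these are known for the cell cycle homology region (CHR), bound by the DREAM and MuvB complexes, and for the CCAAT box, bound by NF-Y. The 4 examples below all hold both elements, which many promoters of these lists do not. Whether the elements have a part in the fall was not tested. The 150 bases before the start site of 4 genes of the mitotic lists follow, from RefSeq on GRCh38.p14, with the CHR (TTTGAA or TTCGAA) and the CCAAT box, searched on both strands, in capitals.
PLK1, chr16:23678739-23678888, plus strand: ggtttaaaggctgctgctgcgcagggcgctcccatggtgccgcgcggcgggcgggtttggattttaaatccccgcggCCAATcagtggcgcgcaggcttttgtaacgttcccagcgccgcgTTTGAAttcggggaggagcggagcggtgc
PSRC1, chr1:109283146-109283295, minus strand: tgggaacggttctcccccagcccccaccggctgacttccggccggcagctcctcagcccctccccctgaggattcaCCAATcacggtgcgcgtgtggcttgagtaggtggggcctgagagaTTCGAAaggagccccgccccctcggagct
CDCA8, chr1:37692366-37692515, plus strand: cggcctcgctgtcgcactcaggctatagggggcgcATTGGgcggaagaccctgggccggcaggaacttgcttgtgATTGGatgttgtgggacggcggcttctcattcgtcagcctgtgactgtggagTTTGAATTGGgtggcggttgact
CENPA, chr2:26785906-26786055, plus strand: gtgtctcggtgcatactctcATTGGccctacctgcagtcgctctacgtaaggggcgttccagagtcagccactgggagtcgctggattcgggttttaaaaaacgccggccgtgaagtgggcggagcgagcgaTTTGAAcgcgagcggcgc
The CHR begins 29 bases before the start of PLK1 and of PSRC1, 23 before that of CDCA8 and 18 before that of CENPA. A CCAAT box lies upstream of it in each, and in CDCA8 the CHR overlaps a further one. Over the windows of 300 bases in the table, both elements were present in 66.7% of 30 promoters of the spindle list, in 37.1% of 35 of the mitotic switches and in 33.3% of 36 of the kinetochore list, against 4.86% of 18852 promoters of genes tested and 6.38% of all 35116 promoters. The share was 4% in 50 promoters of the DNA replication list and 13% in 445 promoters of all genes called down. A match of letters is a description and not a bound site.

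PLK1, the polo kinase that drives mitotic entry (chr16:23688977-23701688, plus strand, GRCh37), stood at 205, 204 and 215 CPM before and at 105, 101 and 98.1 CPM after (log2 -1.03, SE 0.06, adjusted p = 1.22e-06). AURKA, the kinase of the spindle poles, went from 217, 230 and 215 CPM to 98.7, 107 and 103 CPM (log2 -1.10). All 3 treated-recovered libraries of each lay at about the same level. BORA, the activator of AURKA, fell further, from 35.9, 36.0 and 32.0 CPM to 9.14, 13.8 and 13.9 CPM (log2 -1.49, adjusted p = 3.47e-05). The centrosome kinase NEK2 fell from 99.0, 103 and 93.1 CPM to 35.5, 41.2 and 39.9 CPM. CCNB1, the cyclin of CDK1, fell from 461, 488 and 440 CPM to 223, 251 and 250 CPM (log2 -0.94, SE 0.07), and CDK1 itself from 211, 208 and 203 CPM to 116, 150 and 155 CPM (log2 -0.57, SE 0.10). CDC25A, the phosphatase that also serves the entry into S phase, was the 1 switch past the adjusted p with a positive value, from 58.7, 58.1 and 57.2 CPM to 67.6, 65.3 and 63.4 CPM (log2 0.17, adjusted p = 0.0428), and it missed the threshold under DESeq2 (0.0516), with the GC trend removed (0.0728) and without treated-recovered replicate 2 or any 1 untreated replicate (0.0793 to 0.124).

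Among spindle genes the falls ran from -1.64 to -0.50 on the log2 scale. ASPM, which focuses spindle poles, fell from 178, 168 and 157 CPM to 31.1, 59.7 and 69.5 CPM (log2 -1.64, SE 0.23). Its treated-recovered replicates spread over a factor that the untreated ones did not, with replicate 1 lowest, and replicate 1 is the library in which genes of low GC were read at a lower level (median deviation -0.25 in the lowest decile). KIF20A, the kinesin of the central spindle, showed no such spread, at 189, 188 and 180 CPM before and 70.9, 70.3 and 70.5 CPM after (log2 -1.39, SE 0.06, adjusted p = 2.14e-07). PSRC1, a microtubule-binding protein, went from 121, 118 and 130 CPM to 49.8, 47.2 and 44.9 CPM. KIF11, the motor that separates the poles, went from 226, 229 and 216 CPM to 89.6, 120 and 135 CPM (log2 -0.96), and KIF4A, the chromokinesin, changed by -0.79. CENPE and KIF14 changed by -1.30 and -1.37. At the kinetochore, CENPA, the centromeric histone, fell from 84.1, 79.9 and 81.8 CPM to 38.5, 36.3 and 38.3 CPM (log2 -1.12, SE 0.06), and SGOL2, which guards centromeric cohesion, from 109, 100 and 89.0 CPM to 21.6, 37.1 and 45.4 CPM (log2 -1.51, SE 0.21). CASC5 and NUF2, which join the centromere to microtubules, changed by -1.27 and -1.16 (NUF2 by -0.98 with the GC trend removed), and CDCA8 by -1.02. SMC2, the condensin ATPase, changed by -0.82 (adjusted p = 0.000274).

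**Figure D2:**
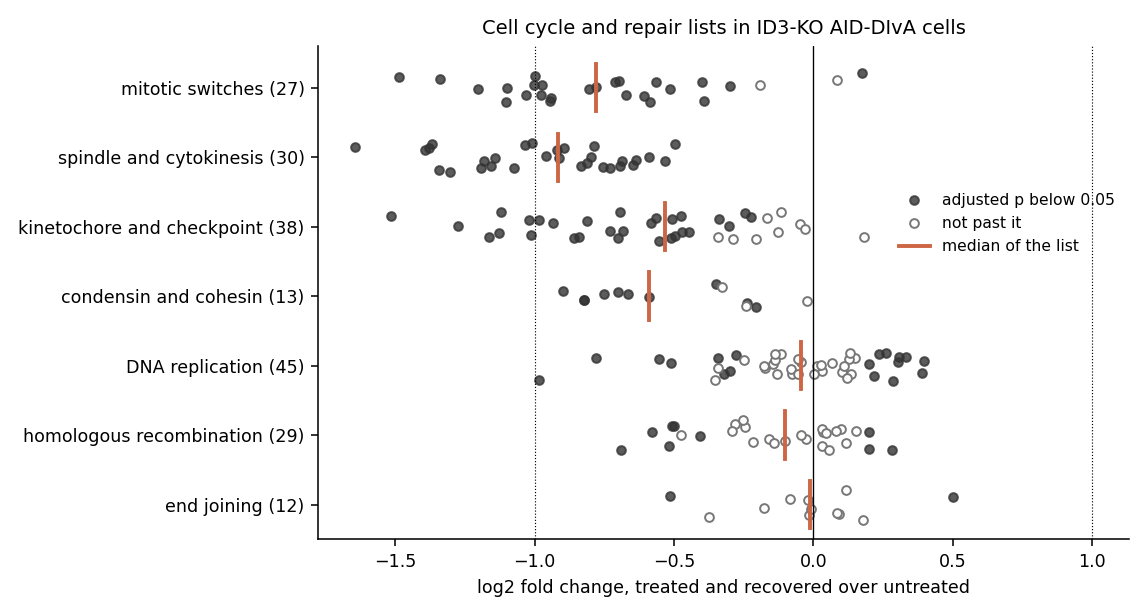
Log2 fold change, treated-recovered over untreated, of each tested member of 7 gene lists in ID3-KO AID-DIvA cells; filled points passed an adjusted p of 0.05, open points did not, bars are list medians and dotted lines mark the log2 threshold of 1. Members of the spindle list lie between -1.64 and -0.50, while DNA replication and repair members lie on both sides of 0.

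As a list, DNA replication genes did not follow the mitotic ones. Of 45 tested, 10 rose and 8 fell, none past the log2 threshold, with a median of -0.05. These counts lie near the shares of all genes, of which 20.2% rose and 19.9% fell. The largest changes were falls, of RRM2 (log2 -0.98, adjusted p = 1.56e-06), DBF4 (-0.78), TYMS (-0.55) and TK1 (-0.51). MCM2, a subunit of the replicative helicase, rose from 259, 244 and 279 CPM to 339, 343 and 343 CPM (log2 0.39, adjusted p = 0.000878). Among the 8 cyclins and kinases of G1, 3 passed the adjusted p, all with positive values. The count was not stable: 2 rose and 2 fell with the GC trend removed, and 1 rose without treated-recovered replicate 2, untreated replicate 1 or untreated replicate 2. CCND2 rose from 206, 209 and 201 CPM to 337, 332 and 337 CPM (log2 0.71, SE 0.05). CCNE1 had 0.18 (adjusted p = 0.0332) and CCND1 had 0.17 (adjusted p = 0.0344), and both missed the threshold without treated-recovered replicate 2 (0.159 and 0.0973). CDK2 had a log2 fold change of -0.16 (adjusted p = 0.0602), CDK4 of -0.05, CDK6 of -0.10, CCNE2 of -0.11 and CCND3 of 0.06, all short of the threshold. Of 17 replication-dependent histone genes, 9 fell and none rose, with HIST1H2AG the 1 past the log2 threshold (-1.51). The count past it was 3 without treated-recovered replicate 2 and 2 with the GC trend removed.

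The inhibitors of cyclin-dependent kinases split. CDKN1A, which encodes p21, rose from 168, 158 and 179 CPM to 350, 311 and 310 CPM (log2 0.94, SE 0.07, adjusted p = 7.31e-06). The other 4 tested fell. CDKN2C, the inhibitor p18 of CDK4 and CDK6, fell from 58.8, 57.1 and 66.1 CPM to 21.4, 20.1 and 19.5 CPM (log2 -1.58, SE 0.08, adjusted p = 7.19e-07). CDKN1B, which encodes p27, fell from 79.0, 75.0 and 85.3 CPM to 35.2, 35.9 and 40.9 CPM (log2 -1.10, SE 0.08), CDKN2D from 14.7, 14.8 and 17.0 CPM to 8.03, 7.30 and 7.08 CPM, and CDKN1C by 0.46 on the log2 scale. In none of the 5 inhibitors tested, of 7 on the list, did the 2 groups overlap, as held for 53.1% of all genes tested.

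Repair and break signalling genes held no calls. No member was called either way among 29 genes of homologous recombination, 12 of end joining and 16 of break signalling, against 7.46% of all genes. At that share, lists of this size hold few calls. At the adjusted p alone, 20.2% of all genes rose and 19.9% fell. In these lists 3 rose and 6 fell, 1 rose and 1 fell, and 1 rose and 4 fell. These counts moved with the libraries and the GC trend. With 1 library left out, 0 to 5 recombination genes rose and 2 to 8 fell, and 0 to 1 signalling genes rose and 1 to 7 fell. With the GC trend removed, 7 recombination genes rose and 9 fell, and 3 signalling genes rose and 8 fell. In end joining, 2 genes then rose and 1 fell. BRCA1 stood at 99.0, 103 and 92.2 CPM before and 73.8, 88.5 and 91.0 CPM after (log2 -0.22, adjusted p = 0.0702), ATM changed by -0.34 (adjusted p = 0.0563), and XRCC4 stood between 11.7 and 17.4 CPM in all 6 libraries, with a log2 fold change of -0.01, or of 0.23 with the GC trend removed (adjusted p = 0.00668). The proapoptotic genes BBC3, PMAIP1 and BAX rose by 0.87, 0.68 and 0.31 on the log2 scale. In the BCL2 family 8 of 16 rose and 1 fell, or 5 with the GC trend removed. BCL2A1, an antiapoptotic target of NF-kappaB, went from 0.0487, 0.0651 and 0.0546 CPM to 1.59, 1.42 and 1.20 CPM (log2 4.56), HRK, a proapoptotic BH3-only gene, rose by 1.20, and BCL2 changed by -0.13 (adjusted p = 0.25).

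MHC class II genes rose, while CIITA, their known activator, did not pass the test. Of 15 tested genes of the class II list, 10 were called up, where 4.9% of all genes were. These 10 encode the chains of classical class II molecules and of the related DM and DO molecules, which handle peptide loading, and the remaining 5 are CD74 and 4 regulators. HLA-DRA (chr6:32407619-32412823, plus strand, GRCh37), the alpha chain of the DR dimer, went from 0.0162, 0.104 and 0.0909 CPM to 3.99, 3.90 and 3.38 CPM (log2 5.66, SE 0.26, adjusted p = 4.82e-07). HLA-DRB1 went from 0.065, 0.104 and 0.109 CPM to 1.80, 1.68 and 1.39 CPM, and HLA-DPA1 from 0.325, 0.338 and 0.255 CPM to 1.74, 2.04 and 1.87 CPM. HLA-DQB1 was the best expressed, from 1.64, 1.76 and 2.09 CPM to 5.71, 5.84 and 4.91 CPM. The peptide loaders HLA-DMA and HLA-DMB rose by 2.33 and 2.09. HLA-DQA1 held 3 counts before and 46 after, a ratio of 19.3 with a counting interval of 6.19 to 96.8. HLA-DOA and HLA-DOB did not exceed 0.504 CPM in any library. Their calls were lost without treated-recovered replicate 3 or untreated replicate 2 (HLA-DOA, adjusted p = 0.06 and 0.0829) and without treated-recovered replicate 2 or under DESeq2 (HLA-DOB, 0.071 and 0.0769).

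CIITA, the coactivator that class II promoters need in immune cells, stood at 0.633, 0.533 and 0.509 CPM before and at 0.66, 0.452 and 0.441 CPM after (log2 -0.15, SE 0.22, adjusted p = 0.625). CD74, the chaperone of class II chains, stayed between 0.273 and 0.504 CPM (adjusted p = 0.422), RFX5 between 63.8 and 70.8 CPM and RFXAP between 4.46 and 6.92 CPM. RFXANK, the remaining subunit of the RFX complex, had 0.27 (adjusted p = 0.0462), which missed the threshold with the GC trend removed (0.133) and without treated-recovered replicate 1, 2 or 3 or untreated replicate 1 or 2 (0.0505 to 0.183). Class II chains are normally made by antigen-presenting cells. The leukocyte marker sum rose from 1.997 to 2.474 CPM in the untreated group to 6.238 to 7.503 CPM in the treated-recovered group over 14 markers, with 3 of them, FCGR3A and CD3G included, at 0 in all 6 libraries. PTPRC, which all leukocytes carry, was at 0.276, 0.221 and 0.20 CPM before and 0.0528, 0.161 and 0.168 CPM after, and ITGAM (log2 3.0) and CD3D (log2 2.50) were the markers that rose. The part of other cells in the class II result was not tested.

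MHC class I genes moved less but from high levels. Of 16, 9 rose and none fell, 3 of them called up, or 2 with the GC trend removed or without treated-recovered replicate 2, untreated replicate 1 or untreated replicate 2, since HLA-B lay at the log2 threshold. HLA-B went from 165, 165 and 181 CPM to 333, 346 and 346 CPM (log2 1.0, SE 0.06), and HLA-F from 4.77, 4.37 and 4.57 CPM to 14.6, 14.1 and 13.6 CPM. PSMB9, a catalytic subunit of the immunoproteasome, rose by 1.69 and PSMB8 by 0.71, and TAP1, a subunit of the peptide pump, by 0.66. B2M, the light chain, had 0.26 (adjusted p = 0.0507).

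**Figure D3:**
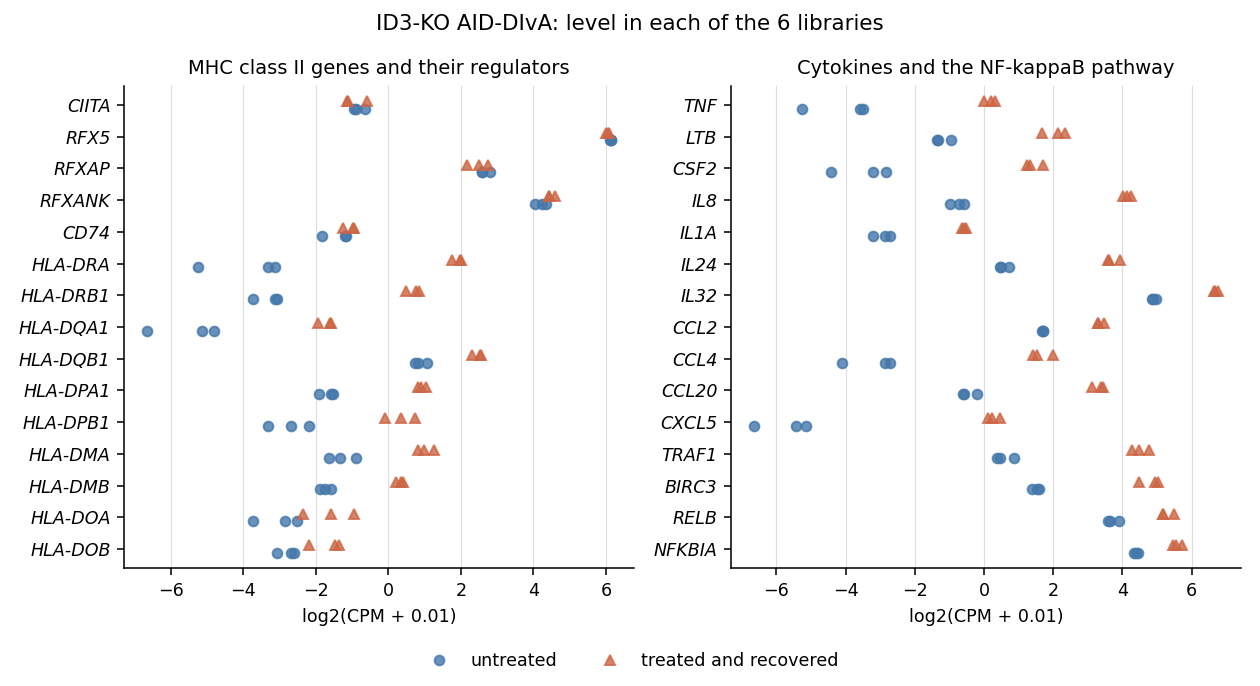
Level in each library, as log2 of CPM plus 0.01, of 10 MHC class II genes with CD74 and 4 regulators (left) and of cytokine and NF-kappaB pathway genes (right) in ID3-KO AID-DIvA cells; circles are untreated and triangles treated-recovered libraries. The class II chains moved to higher levels while CIITA, RFX5, RFXAP and CD74 lay where they had been.

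Inflammatory ligands rose, most of them from near 0. Of 32 chemokines on the list, 13 had enough counts to test. A gene can pass that filter through the treated-recovered group alone. The share of tested members that rose from near 0 is thus partly set by the filter, here and in the other lists. Of the 13, 7 rose and 2 fell, 5 called up and 2 called down. Without untreated replicate 2, 3 were called up. Among the ligands that draw neutrophils, CXCL5 held 2 counts before and 185 after, a ratio of 116 (counting interval 31.7 to 967), and IL8 (chr4:74606223-74609433, plus strand, GRCh37; now CXCL8) rose from 0.601, 0.494 and 0.655 CPM to 18.9, 16.3 and 17.4 CPM (log2 4.92, SE 0.12, adjusted p = 2.69e-08). CCL20, which attracts dendritic cells and TH17 cells, rose from 0.65, 0.859 and 0.655 CPM to 10.9, 10.4 and 8.65 CPM, and the monocyte attractant CCL2 from 3.17, 3.23 and 3.24 CPM to 11, 9.85 and 9.72 CPM. CSF2, the granulocyte-macrophage growth factor, rose from 0.0974, 0.13 and 0.0364 CPM to 3.22, 2.36 and 2.52 CPM (log2 4.81). Of 41 interleukins on the list 15 were tested, of which 7 rose and 1 fell. IL32 was the most abundant of those called, at 29, 29.5 and 31.4 CPM before and 108, 101 and 99.5 CPM after. IL24 rose by 3.16 and IL1A by 2.39, IL15 had -0.53 (adjusted p = 0.0236, and 0.0934 without untreated replicate 1), and IL6 had 0.67 (adjusted p = 0.0623).

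Interleukin receptors rose as well, while of 6 chemokine receptor genes tested 1 rose and 1 fell. Of 31 interleukin receptor genes 23 were tested, of which 12 rose and 4 fell, 9 of them called up and none down. IL2RG, the common gamma chain, rose from 0.227, 0.143 and 0.146 CPM to 1.72, 1.37 and 1.11 CPM, IL21R by 2.89, IL15RA by 2.44 and IL6R by 1.51. IL1RAPL1, a synaptic relative of the IL1 receptors, had the highest log2 fold change of the list (4.38, SE 0.32). IL1R1, the signalling receptor of IL1, fell from 6.61, 5.84 and 5.42 CPM to 3.99, 3.58 and 3.19 CPM.

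In the TNF superfamily 24 of 41 genes were tested. Of these 13 rose and 2 fell, 4 of them called up, and 5 fell with the GC trend removed. TNF went from 0.0162, 0.0781 and 0.0728 CPM to 1.14, 0.992 and 1.24 CPM (log2 4.24, SE 0.32, adjusted p = 8.19e-06), and LTB, which with LTA forms the ligand of the noncanonical pathway, from 0.39, 0.377 and 0.509 CPM to 5.02, 3.21 and 4.39 CPM. NGFR, a neurotrophin receptor, rose from 2.86, 2.82 and 3.69 CPM to 19.7, 15.1 and 16.2 CPM, and TNFRSF11B, the RANKL decoy of bone, from 3.96, 3.88 and 4.07 CPM to 8.53, 8.83 and 7.56 CPM. Downstream, 11 of 14 NF-kappaB genes rose and none fell, 5 called up, with a median of 0.72. The adaptor TRAF1 rose from 1.30, 1.37 and 1.82 CPM to 27, 19.3 and 22.4 CPM (log2 3.94, SE 0.16), the ubiquitin ligase BIRC3 from 2.87, 3.01 and 2.58 CPM to 22.1, 30.9 and 32.4 CPM, and RELB, the noncanonical subunit, from 11.9, 12.5 and 14.9 CPM to 44.9, 35.8 and 35.9 CPM. The feedback inhibitors TNFAIP3 and NFKBIA rose by 1.56 and 1.19. Of the canonical subunits, NFKB1 rose by 0.30 (adjusted p = 0.00263) and RELA had 0.19 (adjusted p = 0.0619).

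Interferon-stimulated genes were mixed. Of 36 tested, 18 rose and 5 fell, 11 of them called up and none down, with a median of 0.39. The 5 that fell became 2 without untreated replicate 1 or untreated replicate 2 and 3 without treated-recovered replicate 2. RSAD2, the antiviral enzyme viperin, went from 0.0812, 0.0911 and 0.0364 CPM to 0.766, 0.803 and 0.756 CPM, and OASL from 0.844, 0.546 and 0.60 CPM to 4.57, 4.10 and 4.79 CPM. IFIT2 went from 1.33, 1.33 and 1.36 CPM to 5.20, 5.60 and 5.06 CPM (log2 1.98, SE 0.10), IFIT3 by 1.59, IFI44 by 1.76 and OAS1 by 1.56. IFIT1, of the same family, went from 8.85, 9.30 and 8.77 CPM to 7.77, 7.55 and 7.92 CPM (log2 -0.21, adjusted p = 0.0467, and 0.242 with the GC trend removed).

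Keratins rose in a cell of mesenchymal origin. Of 56 entries 21 were tested, of which 11 rose, 10 of them called up. KRT83 fell from a mean of 0.211 CPM to one of 0.0447 CPM, a call lost without untreated replicate 3 (adjusted p = 0.0595). KRT34, a hair keratin, went from 3.07, 2.69 and 3.44 CPM to 56.0, 47.2 and 48.7 CPM (log2 4.05, SE 0.11, adjusted p = 3.46e-08), and KRT17, of injured skin, from 15.7, 13.5 and 17.3 CPM to 80.3, 66.0 and 72.4 CPM. KRT7 went from 1.79, 2.08 and 2.40 CPM to 13.1, 10.8 and 10.8 CPM, KRT15, of basal stem cells, rose by 2.67, and KRT79 by 4.08. KRT18, a keratin of simple epithelia that these cells already made, rose by 0.62, and its partner KRT8 had 0.23 (adjusted p = 0.0575). The epithelial marker sum went from 268.5 to 313.4 CPM up to 359.7 to 402.5 CPM. KRT5, KRT8, KRT14, KRT18 and KRT19 are among its markers, so it is not a measure apart from the keratins. The part of other cells in the keratin result was not tested.

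TATA boxes stand near the start of many tissue-specific and inflammatory genes. The letters TATAAA, on either strand, were found in 15.7% of 794 promoters of genes called up, 8.99% of 445 of genes called down, 6.92% of 18852 of genes tested and 11.5% of all 35116 promoters, and in 55.3% of 38 promoters of the keratin list. The 150 bases before the start of 3 risen genes are given because they show it at the usual distance, 31, 31 and 29 bases from the start, with TATAAA in capitals (RefSeq, GRCh38.p14).
KRT34, chr17:41382307-41382456, minus strand: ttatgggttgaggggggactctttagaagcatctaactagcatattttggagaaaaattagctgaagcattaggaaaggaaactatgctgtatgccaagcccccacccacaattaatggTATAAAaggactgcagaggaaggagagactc
CXCL8, chr4:73740419-73740568, plus strand: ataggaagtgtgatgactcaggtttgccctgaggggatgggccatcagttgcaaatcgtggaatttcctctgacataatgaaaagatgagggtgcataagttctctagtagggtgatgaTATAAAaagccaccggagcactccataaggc
TNF, chr6:31575415-31575564, plus strand: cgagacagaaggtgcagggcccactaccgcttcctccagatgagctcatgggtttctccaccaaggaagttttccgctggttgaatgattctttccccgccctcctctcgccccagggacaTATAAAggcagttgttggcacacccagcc
The E-box CANNTG, the element of the E proteins that ID3 binds, was in 73.2% of the promoters of genes called up, 64.7% of those called down, 62.5% of those of genes tested and 68.7% of all promoters.

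Some risen genes lay side by side. Among tested genes in chromosome order, 32 runs of at least 3 neighbours were called up, with 131 genes in all, and 4 runs of 3 were called down. These runs were looked for after the values were seen. The longest held 13 genes over 856 kb of chromosome 19 (chr19:43011456-43867480, GRCh37), from CEACAM1 to CD177, with the pregnancy-specific glycoprotein genes PSG1, PSG2, PSG3, PSG4, PSG5, PSG8, PSG9, PSG11 and PSG10P between them. Placental trophoblast is the usual source of PSG proteins. PSG4 went from 2.84, 3.40 and 2.62 CPM to 28.1, 26.1 and 24.4 CPM (log2 3.14, SE 0.11, adjusted p = 9.86e-08), PSG9 from 1.48, 1.55 and 1.46 CPM to 21.3, 18.4 and 16.3 CPM and PSG5 from 0.877, 0.625 and 0.691 CPM to 14.1, 11.3 and 12.5 CPM. The PSG genes are near-identical copies, so reads can be shared between them and the value of a single copy is uncertain. PSG6 and PSG7 had too few counts to test, at 1 and 2 before and 29 and 24 after.

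**Figure D4:**
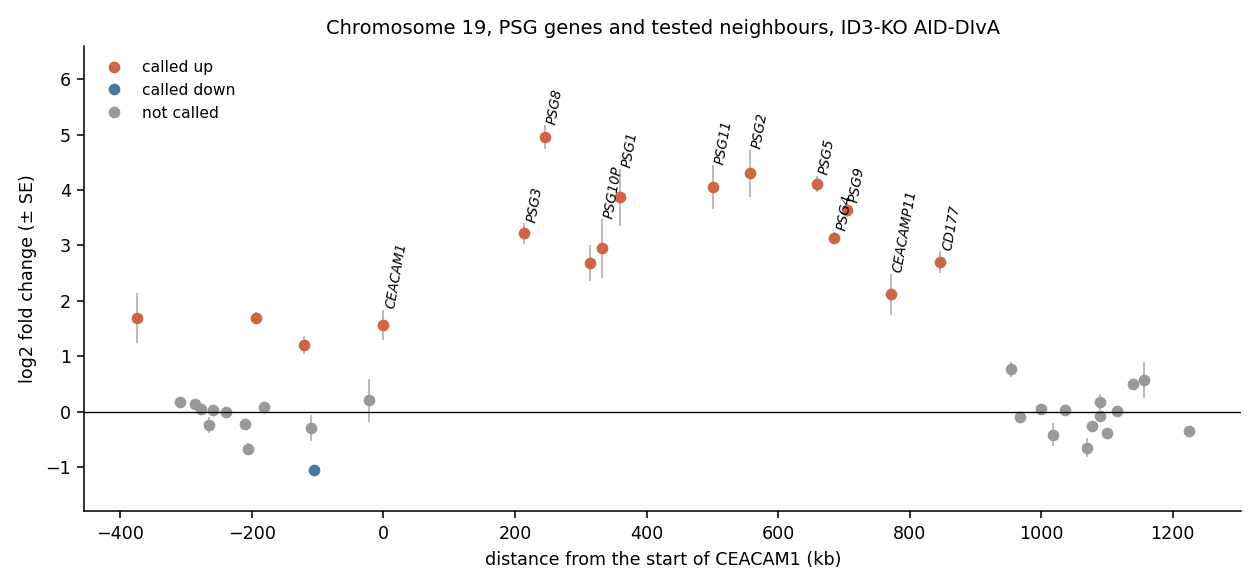
Log2 fold change with its SE of every tested gene around the PSG cluster of chromosome 19, against the distance of its start from that of CEACAM1 in kb, in ID3-KO AID-DIvA cells; colours mark called up, called down and not called. The 13 genes from CEACAM1 to CD177 lie between 1.57 and 4.96, and most tested genes on either side were not called.

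Other runs followed gene families. Chromosome 17 held 6 neighbours called up with KRT20, KRT23, KRT33B, KRT34 and KRT15 among them, and chromosome 12 held 7 around KRT7 and KRT86. The chorionic gonadotropin genes CGB2, CGB5 and CGB8, also placental and near-identical, lay in a run of 6 over 18.9 kb, with CGB5 at 1.61, 1.37 and 1.98 CPM before and 12.6, 10.5 and 13.4 CPM after. The kallikreins KLK6, KLK7, KLK8 and KLK10 rose by 1.93, 2.31, 1.59 and 1.31 in a run of 5. Class II genes made a run of 5 over 238.3 kb, from HLA-DRB1 to HLA-DOB.

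Muscle and matrix genes moved in both directions. Of 27 genes of the MYOCD and contractile list 6 rose and 12 fell, and the 6 became 3, 3 and 2 without treated-recovered replicate 1, untreated replicate 1 or untreated replicate 2. Apart from MYOCD, TNNT2, the cardiac troponin, fell from 14.3, 14.6 and 13.8 CPM to 2.14, 1.82 and 1.49 CPM, and TAGLN, of smooth muscle, changed by -0.38 (adjusted p = 0.00665). DES, the muscle intermediate filament, went the other way, from 0.292, 0.247 and 0.309 CPM to 4.07, 2.51 and 2.86 CPM, and SRF, the DNA-binding partner of MYOCD, had -0.20 (adjusted p = 0.0769). Of 36 collagen genes, 12 rose and 10 fell. Among fibrillar chains, COL3A1 fell from 502, 492 and 547 CPM to 235, 221 and 244 CPM, COL5A2 by 1.05 and COL1A1 by 0.43, while COL5A3 rose by 2.51. COL6A3 rose from 39.4, 34.5 and 36.6 CPM to 101, 98.4 and 89.1 CPM, COL17A1, the collagen of hemidesmosomes, by 1.78. With the GC trend removed, 5 collagens were called down in place of 3.

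Adhesion genes of epithelial type were among the risen. Of 36 integrins and laminins, 16 rose and 9 fell, 7 called up and 3 down. LAMB3, a chain of the laminin under epithelia, rose from 103, 96.4 and 114 CPM to 270, 244 and 242 CPM, LAMA1 from 54.4, 51.1 and 55.1 CPM to 161, 153 and 146 CPM, and their receptor subunit ITGA6 from 83.6, 80.1 and 74.2 CPM to 149, 178 and 185 CPM. LAMA4, a laminin of vessels, fell by 1.99 and ITGB8 by 1.44. FN1, the fibronectin gene, fell from 462, 445 and 469 CPM to 250, 244 and 229 CPM (log2 -0.93). Of 33 matrix proteases and inhibitors, 16 rose and 8 fell, 8 called up and 3 down. MMP9, a gelatinase, rose from 14.5, 13.5 and 15.1 CPM to 78.9, 66.3 and 55.6 CPM, the stromelysin MMP3 from 6.35, 6.77 and 6.4 CPM to 24.6, 33.1 and 30.6 CPM and MMP10 by 2.99, while the aggrecanase ADAMTS5 fell by 1.95.

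Neuronal genes rose broadly. Of 29 tested, 20 rose and 3 fell, 10 called up and none down, with a median of 0.68. SYP, a protein of synaptic vesicles, went from 4.09, 4.25 and 4.29 CPM to 33.4, 28.6 and 27.9 CPM (log2 2.83, SE 0.09, adjusted p = 6.77e-08), CHGA, of secretory granules, from 0.227, 0.169 and 0.218 CPM to 2.51, 2.60 and 2.08 CPM, and the fusion clamps CPLX2 and CPLX1 by 3.08 and 2.43. REST, the repressor that works with class I HDACs on such genes, had a log2 fold change of -0.26 (adjusted p = 0.0702).

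Of 18 early-response genes of the AP-1 list, 10 rose and none fell, 5 called up, or 3 with the GC trend removed. DUSP5, a phosphatase of ERK, rose from 9.43, 9.06 and 8.82 CPM to 39.9, 36.9 and 35.6 CPM, MAFF by 1.57 and FOSL1 by 1.21. FOS varied more between replicates than between groups, at 84.8, 27.4 and 31.4 CPM before and 52.6, 21.1 and 27.9 CPM after (adjusted p = 0.426). In the MYC network MYC and MAX rose while MXD3, an antagonist of MYC, fell from 32.9, 30.3 and 41.1 CPM to 16.2, 14.7 and 13.4 CPM (log2 -1.24, SE 0.12). MYCN, of the MYC family, was called down as well. Its call was lost without treated-recovered replicate 1 or 2 (log2 -0.901 and -0.986) and on reverse-strand counts (-0.944).

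Of 11 HDAC genes, 9 did not pass the test, or 6 with the GC trend removed, when 4 fell. HDAC1 was among the 9 at 201, 203 and 201 CPM before and 207, 203 and 188 CPM after. HDAC9, a class IIa enzyme, rose from 25.9, 24.6 and 24.8 CPM to 55.1, 57.4 and 59.5 CPM (log2 1.19, SE 0.07), and HDAC6, the tubulin deacetylase, fell from 93.1, 87.9 and 97.3 CPM to 66.8, 62.2 and 58.5 CPM (log2 -0.57). Of 13 acetyltransferase genes 9 fell and 1 rose, none past the log2 threshold.

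Small shifts ran through large families. Of 82 cytoplasmic ribosomal protein genes 54 rose and 1 fell, none past the log2 threshold, with a median of 0.27. RPS18 went from 806, 760 and 850 CPM to 1120, 1080 and 1070 CPM. Of 76 nuclear genes of oxidative phosphorylation 25 rose and 1 fell (median 0.13). With the GC trend removed 40 of them rose and 4 fell, and without treated-recovered replicate 2, 16 rose. Of 212 zinc finger genes of chromosome 19, 78 fell and 12 rose (median -0.22), and of 48 clustered protocadherins 28 fell and none rose (median -0.48). The zinc finger count was the least stable, at 46 fallen without untreated replicate 1 and 41 without untreated replicate 2. The medians kept their direction with the GC trend removed, with 53 ribosomal genes rising, 79 zinc finger genes falling and 20 rising, and 31 protocadherins falling.

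WT AID-DIvA cells went through the same scheme. Of the 997 genes called up in ID3-KO cells, 666 (66.8%) were also called up in WT cells. Of the 521 called down, 262 (50.3%) were called down there, and 0 of either set were called the opposite way. Over members tested in each, WT and ID3-KO medians were 1.715 and 1.591 for MHC class II and 1.088 and 0.771 for keratins. They were 0.714 and 0.715 for NF-kappaB genes and 0.496 and 0.68 for neuronal genes. The difference between the 2 responses was tested with the genotype by treatment term on 12 libraries. Of 21265 genes, 162 (0.762%) had a higher and 96 (0.451%) a lower log2 fold change in ID3-KO than in WT cells. The calls held little reserve: leaving out 1 library gave 76 to 192 genes higher and 46 to 128 lower. Of 49 genes looked at for this term, 17 lost the call under some alternative. The genes named first kept an adjusted p below 0.05 whichever library was left out, except where said, and were chosen after those values were seen, and examples of the 17 follow them.

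Of the 24 TNF superfamily genes, 4 had a higher and 1, TNFSF15 (difference -0.96, a call that was among the 17 lost), a lower response in the knockout. TRAF1 rose by 3.94 in ID3-KO and 2.11 in WT cells, a difference of 1.83 (adjusted p = 0.000105). LTB rose by 3.29 against 1.32, but its difference lost its call without untreated ID3-KO replicate 1 or 2 (adjusted p = 0.0574 and 0.0823) or untreated WT replicate 2 or 3 (0.0589 and 0.167). TNFRSF11B rose by 1.07 in ID3-KO cells and had -0.14 in WT cells (adjusted p = 0.509), and CD70 rose by 0.73 against 0.05 (adjusted p = 0.603 in WT cells). TNFRSF9, a costimulatory receptor of T cells, rose by 0.98 against 0.33. Among chemokines, CCL24 had 0.75 in ID3-KO cells (adjusted p = 0.0347, and 0.118 without untreated replicate 2) and fell in WT cells by 1.09, CCL26 rose by 0.65 against -0.21 (adjusted p = 0.0525), and CX3CL1 had 0.29 (adjusted p = 0.0663) while it fell by 0.78 in WT cells. PPARGC1A, the coactivator of mitochondrial genes, rose by 1.94 in ID3-KO cells, from 0.601, 0.638 and 0.509 CPM to 2.09, 2.29 and 2.39 CPM, and fell by 0.58 in WT cells. COL5A3 rose by 2.51 against 0.87, and the pseudogene RPLP0P2, whose reads may be shared with its parent, by 3.65 against 2.25. RP11-47I22.3, a non-coding RNA, rose by 1.53 in ID3-KO cells and had -0.08 in WT cells.

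The genes lower in the knockout response included interferon-stimulated ones. IFIT2 rose by 1.98 in ID3-KO and 3.19 in WT cells, IFIT3 by 1.59 and 2.85, and ISG15 by 0.77 and 1.65. DDX60 had 0.47 in ID3-KO cells (adjusted p = 0.0235, and 0.0946 without treated-recovered replicate 2) and rose by 1.79 in WT cells. IFIT1 had -0.21 in ID3-KO cells and rose by 0.35 in WT cells. These are 5 of 36 members, and none had a higher response in the knockout. OASL, RSAD2 and IFI44 rose by 2.76, 3.39 and 1.76 in ID3-KO and by 2.92, 3.38 and 1.93 in WT cells, with no difference past the threshold. HIST1H2AC, HIST1H2BK and HIST1H2BJ fell by 0.89, 0.95 and 0.80 in ID3-KO cells, against 0.16 (adjusted p = 0.0664), -0.20 and -0.15 (adjusted p = 0.0988) in WT cells. TGM2, a transglutaminase, rose by 0.32 against 1.20, KRT75 by 1.80 against 2.89, CCDC147 by 2.63 against 3.93 and MYO7B by 0.92 against 1.70. KRT81 had 0.26 in ID3-KO cells (adjusted p = 0.0716) and rose by 1.5 in WT cells, a call lost without treated-recovered ID3-KO replicate 1 (adjusted p = 0.0645).

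MMP9, ITGAM and HLA-F were among the differences that did not hold. MMP9 rose by 2.22 in ID3-KO cells and had 0.80 in WT cells (adjusted p = 0.0528), and the difference of 1.42 (adjusted p = 0.022) was lost with the GC trend removed (adjusted p = 0.0903) and without 8 of the 12 libraries in turn. ITGAM, a leukocyte integrin chain, differed by 1.19 and lost the call without untreated ID3-KO replicate 1 or 2 (adjusted p = 0.0767 and 0.0867) or untreated WT replicate 2 or 3 (0.0637 and 0.0535). HLA-F differed by 0.68 and lost it without untreated ID3-KO replicate 2 (0.056) or untreated WT replicate 1 or 2 (0.058 and 0.0515).

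**Figure D5:**
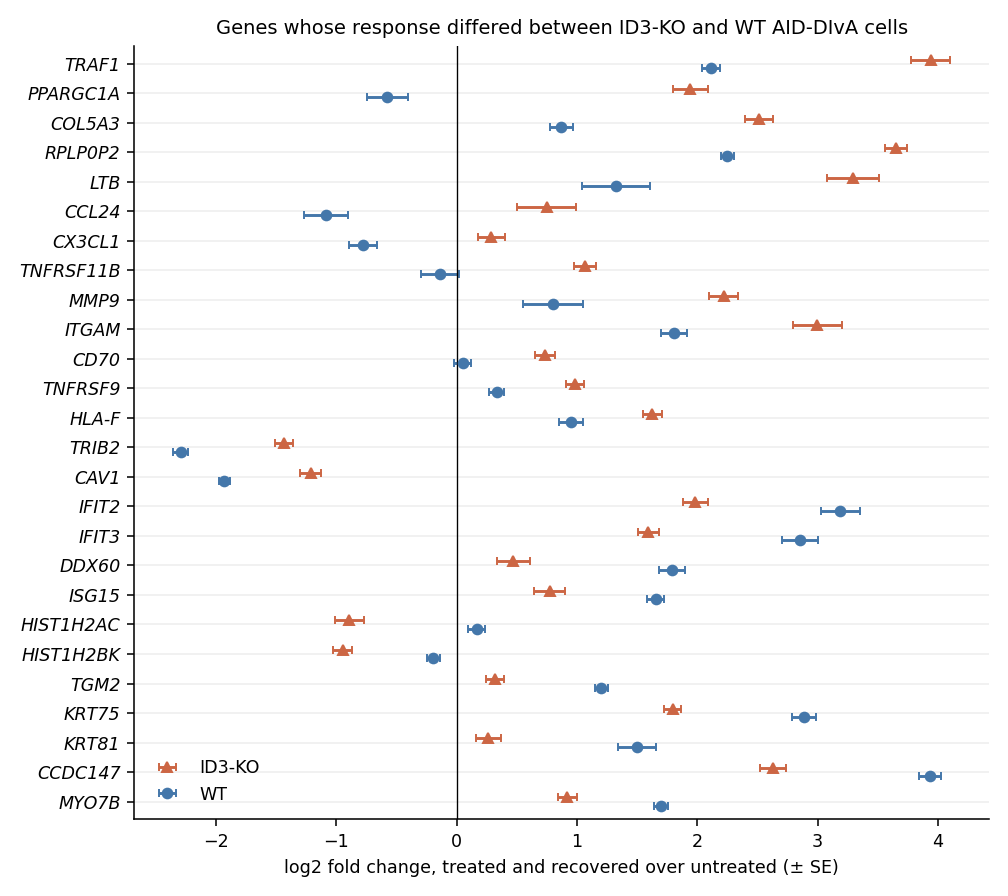
Log2 fold change with its SE, treated-recovered over untreated, of genes whose response differed between ID3-KO (triangles) and WT (circles) AID-DIvA cells by the genotype by treatment term, 3 libraries per group. TRAF1, LTB and the chemokine genes lie further right in ID3-KO cells, and the IFIT genes, DDX60 and ISG15 further right in WT cells.

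ID3-KO U2OS cells collected with no recovery give the nearest view of the response before the drug was removed, although stage and cell line cannot be told apart. None of their libraries is shared with the AID-DIvA comparison. Of the 997 genes called up after recovery, 620 (62.2%) were also called up before it, which is 20.1% of the 3086 called up there. The 521 genes called down overlapped less: 115 (22.1%, or 9.41% of 1222) were called down before recovery and 57 were called up. Their median log2 fold change was -0.40 before recovery and -1.24 after it, where the call itself required a value below -1. For the genes called up, the medians were 1.81 before and 1.62 after, over those tested in both. The difference between the responses passed the threshold for 11531 of 21947 genes (52.5%), so a difference by itself says little of a gene.

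Mitotic genes were among those that differed. The median of the spindle list was -0.24 before recovery and -0.92 after, and 24 of its 30 genes had a lower response after recovery and none a higher one. NEK2, CEP55 and CENPE rose by 0.14, 0.18 and 0.49 before recovery and fell by 1.34, 1.14 and 1.30 after it. Of the 45 DNA replication genes, 25 had a higher response after recovery and 5 a lower one, and MCM2 changed by -0.97 before and 0.39 after.

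Genes named above differed in both directions between the 2 sets of cells. IL8, CCL20 and NGFR had log2 fold changes of 7.23, 5.39 and 5.32 before recovery and 4.92, 3.77 and 2.45 after it. CSF2 rose after recovery but not before (log2 -0.69, adjusted p = 0.184), and LTB fell before recovery by 0.52. IFIT2 and IFIT3 fell before recovery by 0.96 and 0.71. CIITA rose before recovery by 1.58 and HLA-DMB by 5.10. PSG4, PSG9 and PSG3 had -0.03, 0.05 and 0.04 before recovery (adjusted p = 0.778, 0.757 and 0.917), against 3.14, 3.64 and 3.22 after it. UCA1 and SP140 rose by 1.75 and 1.81 before recovery.

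By adjusted p, the stage term ranked 6 genes first in each direction at a mean of at least 1 CPM. AMIGO2, a neuronal adhesion molecule, fell by 2.56 before recovery and rose by 0.84 after, NNMT, which methylates nicotinamide, fell by 2.69 and then had 0.10 (adjusted p = 0.162), and SYNE1, a nuclear envelope linker, fell by 1.57 and rose by 0.97. ANO2 and C15orf52 likewise fell before recovery, by 1.70 and 1.88, and rose after it, by 0.68 and 0.34. LINC00452 fell by 4.19 before and had -0.20 after (adjusted p = 0.0293, and 0.175 without untreated replicate 1). In the other direction KCNA1, a potassium channel, rose by 3.28 before recovery and had -0.09 after (adjusted p = 0.471), and VAT1L rose by 2.81 and had -0.04 (adjusted p = 0.657). RIMKLA and CAMKV rose by 4.01 and 4.18 before recovery and had 0.25 (adjusted p = 0.117) and 0.34 (adjusted p = 0.0442, and 0.236 with the GC trend removed) after it. STC1 and TMTC1 rose by 1.99 and 0.50 before recovery and fell by 0.79 and 1.65 after it.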

How the data were processed

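Total RNA libraries (stranded, paired reads of 100 bases) had been aligned by the authors with STAR to hg19/GRCh37 and counted per gene with featureCounts; versions are not given in the sources used here. The authors deposited fragment counts per gene from either strand, not normalized, for 57820 genes; their FPKM and TPM columns were not used. Counts were tested with edgeR 4.0.16 (R 4.3.3; TMM, filterByExpr, robust quasi-likelihood test), with Benjamini-Hochberg adjustment over all genes tested. Gene types came from GENCODE v44 lifted to GRCh37, by 55538 matched IDs. Alternatives were DESeq2 1.42.0, its size factors, other count filters (such as at least 10 counts in every library), reverse-strand counts, all AID-DIvA groups in 1 fit, a replicate block, a test against a fold of 1.5, each library left out and, added after the values were seen, a GC offset. The fits were tested on simulated counts. The members and gene lists were chosen with earlier results of these data known. Named genes are ID3, the 12 genes with the most extreme log2 fold change in each direction (mean of at least 1 CPM, no overlap, a gene symbol that is no clone name), the 8 with the largest difference in CPM, list members by role or fold, the 6 with the smallest adjusted p in each direction of both interaction terms and, chosen after their values were seen, neighbours in runs. Promoters were read from a RefSeq table (GRCh38.p14). HLA-DRA, PSG1, AURKA, TTK, KRT7 and KRT17 had no entry. A few items are not reported here.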

Additional observations from a re-analysis of the deposited data

Results flagged for a closer look

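The log2 response to mocetinostat with recovery differed between ID3-KO and WT AID-DIvA cells, by the genotype by treatment term of edgeR's quasi-likelihood test, for the following genes. Values are the ID3-KO response minus the WT response. It was higher in ID3-KO cells for PPARGC1A (2.53), LTB (1.98), CCL24 (1.84), TRAF1 (1.83), COL5A3 (1.65), RP11-47I22.3 (1.61), MMP9 (1.42), RPLP0P2 (1.41), TNFRSF11B (1.21), ITGAM (1.19), CX3CL1 (1.07), BIRC3 (0.99), TRIB2 (0.87), CCL26 (0.86), DRD1 (0.83), KLK6 (0.82), SYP (0.76), CAV1 (0.72), HRK (0.70), CD70 (0.69), HLA-F (0.68), TNFRSF9 (0.66), RUNX2 (0.53), CSF1 (0.50), HDAC9 (0.45), RPS18 (0.34), RPL19 (0.34), CDK4 (0.32). It was lower in ID3-KO cells for PRR11 (-0.33), AURKA (-0.36), BRE (-0.43), TGFBI (-0.49), IFIT1 (-0.56), HIST1H2BJ (-0.64), HIST1H2BK (-0.74), ZNF503 (-0.77), MYO7B (-0.77), PSG4 (-0.81), MAP3K7CL (-0.84), TGM2 (-0.87), ISG15 (-0.88), TNFSF15 (-0.96), HIST1H2AC (-1.05), KRT75 (-1.08), IFIT2 (-1.20), KRT81 (-1.23), IFIT3 (-1.25), CCDC147 (-1.30), DDX60 (-1.31). Of these 49 genes, 17 lost the call under some alternative.

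The response of ID3-KO cells after recovery differed from that of ID3-KO U2OS cells before recovery, and stage and cell line cannot be told apart. It was higher after recovery for LINC00452 (3.98), AMIGO2 (3.39), NNMT (2.78), SYNE1 (2.53), ANO2 (2.37), C15orf52 (2.21). It was lower after recovery for TMTC1 (-2.16), STC1 (-2.79), VAT1L (-2.86), KCNA1 (-3.37), RIMKLA (-3.78), CAMKV (-3.85). All 12 kept the call under the alternatives run.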

How the results depend on the processing

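With at least 10 counts required in every library, 619 genes were called up and 320 down. Leaving out 1 library gave 985 to 1091 up and 463 to 628 down. The ID3-KO minus WT term gave 296 higher and 166 lower genes with DESeq2, 407 and 354 with the GC trend removed, 422 and 191 with no filter on low counts, and 76 to 192 and 46 to 128 with 1 library left out; the lowest were without untreated WT replicate 1. Deviations of same-numbered replicates correlated at -0.2035, 0.2032 and -0.3216. The highest correlation, 0.3842, joined untreated replicate 3 and treated-recovered replicate 1, whose deviations rose with GC (0.706 and 0.649). Whether replicate numbers pair the samples cannot be told from these values, since they carry the GC trends of the libraries. With the replicate block the ID3-KO minus WT term gave 96 and 61 genes, while the ID3-KO comparison gave 966 up and 500 down. The median of the mitotic switches was -0.823 with the GC trend removed. That of the MHC class II list was 0.266 with at least 10 counts and 2.086 on reverse-strand counts, and 1.558 to 1.84 with 1 library left out. That of the interferon-stimulated genes was 0.241, 0.475 and 0.343 to 0.488 under the same settings. That of the keratins was 0.622, 1.466 and 0.658 to 1.354, and 0.636 with the GC trend removed. The filter leaves fewer genes in these lists; the other causes were not tested.

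Values that changed sign were short of the adjusted p in the fit as reported. With the GC trend removed, ID2 had -0.025, CCND3 -0.073, CCNE2 0.122, CDK6 0.062 and XRCC4 0.226, and XRCC4 passed the threshold there (adjusted p = 0.00668). With DESeq2 size factors, HDAC1 had 0.001 and XRCC4 0.002. With 1 library left out, CCNE2 ran from -0.179 to 0.009, CDK6 from -0.201 to 0.036, XRCC4 from -0.106 to 0.136 and HDAC1 from -0.038 to 0.047. FOS ran from -0.967 to 0.211, FOSB from -1.034 to 0.582 and EGR1 from -0.581 to 0.229, each highest without untreated replicate 1. Of 279 named genes, 38 changed their call or sign under some alternative, among them HLA-B, PRR11, PLK1, CDCA8, NUF2 and CDKN2D, whose log2 fold change lay near 1 in size. With the GC trend removed, 9 named genes lost their call and 2 gained one. Lost were HLA-B (0.92), CENPF (-0.983), PRR11 (-0.936), NUF2 (-0.983), TTK (-0.966), CCNA2 (-0.889), KIF18A (-0.951), JUNB (0.896) and DUSP1 (0.977). Gained were TNFRSF9 (1.064) and HIST1H2BK (-1.088). Of 245 named genes past the adjusted p, 15 missed it under some alternative, 9 of them under the replicate block.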

Other observations

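Early-response genes were highest in replicate 1 of both groups. FOSB stood at 20.5, 4.37 and 5.35 CPM in the untreated libraries and at 12.1, 3.44 and 6.55 CPM in the treated-recovered ones. EGR1 stood at 162, 79.6 and 65.6 CPM and at 117, 67.8 and 68.8 CPM. Neither passed the test between the groups.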
